A study of Mus musculus with 6 samples.

Results

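The locus of Foxa2 in the mouse genome held 141 of the 125038 regions listed for Foxa1 and Foxa2 in prostate tumor cells, with 6 Foxa1 regions after 2 weeks of tamoxifen, 73 Foxa1 regions after 6 months, and 0 and 62 Foxa2 regions at these times. The locus was taken as the gene body and 200 kb to either side (chr2:147842877-148246969, mm10), and every region with its summit there was a member. Foxa2 itself spans chr2:148042877-148046969 on the minus strand, so that lower coordinates lie on the 3′ side of the gene and higher coordinates on the 5′ side. The study sequenced immunoprecipitated chromatin (ChIP-seq) from prostate tumor cells of C57BL/6 mice, with an antibody to Foxa1, an antibody to Foxa2 or no antibody (input), and each was done after tamoxifen for 2 weeks and for 6 months. This gives 6 libraries in 6 groups of 1. The labels give no genotype, no driver of tamoxifen action and no age of the animals, and the protocol starts from 3 dissected prostates minced together, without sorting. The chromatin was therefore a mixture of cells, and more cells with a bound site cannot be told apart from more binding per cell. Peak lists carry no transcript levels, so the labelled cell type was not checked against markers.

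Foxa1 and Foxa2 are forkhead transcription factors that bind their sites in closed chromatin and make them accessible to other factors, and are therefore called pioneer factors. They recognise nearly the same DNA motif through a shared forkhead domain. In the prostate, Foxa1 works with the androgen receptor in luminal cells, whereas Foxa2 is known from the budding prostate epithelium and from neuroendocrine prostate cancer. In endoderm both factors are known to bind at their own and at each other's genes.

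Each group being a single library, differences cannot be checked against replicates, and no p-value is given. The authors' fold enrichment (signal at the summit over the peak caller's local background) and -log10 q (the adjusted strength of evidence for a peak) describe and rank regions within their own list. Read depth is unknown from the lists. Intervals on shares are exact Clopper-Pearson 95% intervals and cover counting error alone. In the whole genome, Foxa1 had 54226 listed regions at 2 weeks and 35869 at 6 months, Foxa2 had 34942 at 6 months, and the list of Foxa2 at 2 weeks held 1, at chr2:160365842-160366543, which is 12.3 Mb from Foxa2.

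Foxa2 is the only protein-coding gene in the stretch. The nearest others are Pax1, a paired-box transcription factor gene 668 kb away on the 3′ side, and Sstr4, a somatostatin receptor gene 348 kb away on the 5′ side. The long noncoding RNA gene 9030622O22Rik fills much of the 3′ side (chr2:147944459-148040513) and is transcribed from the same strand as Foxa2, from starts just beyond the 3′ end of Foxa2 and from starts farther out. Because the data place regions at several of these starts, their sequences are shown first. They are RefSeq sequences (GRCm38.p6, whose coordinates on chromosome 2 are those of mm10), read 5′ to 3′ on the minus strand. Capitals mark matches to 6 spellings of the forkhead motif, searched on both strands. The spellings were TGTTTAC and its variant with another second base, TATTTAC, then with a changed middle the spelling TGTTGAC and likewise TATTGAC, and with another base before the last TGTTTGC and finally TATTTGC. No other genomic sequence of the locus was used here. The run at the first Foxa2 start holds the 250 bases before it (chr2:148046970-148047219) and is covered by a 6-month Foxa1 region and a 6-month Foxa2 region. The runs at 9030622O22Rik hold 250 bases before and 50 after a start. In the cluster of starts next to Foxa2, the window of the start nearest to Foxa2 (chr2:148040464-148040763) holds a 6-month Foxa1 summit. The start at chr2:147985369-147985668 holds a 2-week Foxa1 summit and no 6-month region, that at chr2:147980281-147980580 lies under regions of both factors at 6 months and none at 2 weeks, and that at chr2:147961970-147962269 lies under regions of all 3 lists.
Foxa2 first start: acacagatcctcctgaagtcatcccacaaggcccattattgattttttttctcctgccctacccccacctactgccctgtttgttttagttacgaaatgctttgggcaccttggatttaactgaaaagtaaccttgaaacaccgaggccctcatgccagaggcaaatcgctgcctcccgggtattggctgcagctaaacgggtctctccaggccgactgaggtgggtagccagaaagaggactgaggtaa
9030622O22Rik next to Foxa2: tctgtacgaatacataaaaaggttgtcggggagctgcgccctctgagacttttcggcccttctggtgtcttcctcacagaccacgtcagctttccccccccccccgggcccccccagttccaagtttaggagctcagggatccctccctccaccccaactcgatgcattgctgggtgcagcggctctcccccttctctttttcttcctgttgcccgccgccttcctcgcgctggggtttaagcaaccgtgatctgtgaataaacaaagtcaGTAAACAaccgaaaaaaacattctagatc
9030622O22Rik, 2-week Foxa1 summit: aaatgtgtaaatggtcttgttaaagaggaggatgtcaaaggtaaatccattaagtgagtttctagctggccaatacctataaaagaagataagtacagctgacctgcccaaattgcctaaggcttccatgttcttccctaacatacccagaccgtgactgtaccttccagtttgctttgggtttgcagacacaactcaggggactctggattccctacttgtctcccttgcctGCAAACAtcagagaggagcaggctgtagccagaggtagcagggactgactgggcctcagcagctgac
9030622O22Rik, 6-month regions of both factors: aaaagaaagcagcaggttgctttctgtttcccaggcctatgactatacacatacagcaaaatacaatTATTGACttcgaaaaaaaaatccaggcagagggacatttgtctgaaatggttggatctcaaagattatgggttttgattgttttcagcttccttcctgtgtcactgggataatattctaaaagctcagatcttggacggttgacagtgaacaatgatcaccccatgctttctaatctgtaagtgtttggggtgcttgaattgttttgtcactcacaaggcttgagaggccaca
9030622O22Rik, regions of 3 lists: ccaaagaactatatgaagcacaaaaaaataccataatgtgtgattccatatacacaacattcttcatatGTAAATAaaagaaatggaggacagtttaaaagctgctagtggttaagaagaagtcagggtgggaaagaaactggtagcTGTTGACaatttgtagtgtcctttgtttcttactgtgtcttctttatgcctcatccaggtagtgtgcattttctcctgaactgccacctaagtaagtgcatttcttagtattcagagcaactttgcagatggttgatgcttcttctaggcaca
The first Foxa2 run held none of the 6 spellings, and other spellings were not searched for. The run next to Foxa2 held TGTTTAC on the opposite strand at bases 272 to 278, counted from its 5′ end. The run with the 2-week Foxa1 summit held TGTTTGC on the opposite strand at bases 234 to 240. TATTGAC stood at bases 68 to 74 of the run with 6-month regions of both factors. The run with regions of all 3 lists held 2 matches, TATTTAC on the opposite strand at bases 70 to 76 and TGTTGAC at bases 148 to 154. A further 9030622O22Rik start window, not printed (chr2:148031939-148032238), lay under no region and held 0 matches. The start window of the noncoding gene Gm35528 (chr2:147877254-147877553) lay under 6-month regions of both factors and also held 0 matches. Those of the noncoding genes Gm35579 and Gm36597 lay under no region and held 0 matches. Of all 32817 start windows of this kind (300 bases, 250 before and 50 after a start), 16.6% held at least 1 of the 6 spellings and 2.15% held 2 or more. TGTTTAC was found in 3.65% of them and TATTGAC in 1.41%. These matches describe the letters in these windows and do not show a bound site.

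At 2 weeks, Foxa1 occupied the 3′ side of the locus alone, at 6 regions between 57.36 and 166.07 kb from the 3′ end of Foxa2. None lay in the gene body, within 50 kb of it, or anywhere on the 5′ side. The strongest was a broad region of 3193 bp at chr2:147929627-147932819, 110.67 kb from the gene, with a fold enrichment of 11.1 and a -log10 q of 39.7, which placed it 2109th of 54226 (top 3.89%). Next came the region at the inner start of 9030622O22Rik (chr2:147984776-147985844, 57.36 kb, fold 7.67, -log10 q 21.3) and a region at chr2:147974851-147975628 (67.67 kb, fold 7.11, -log10 q 18.5). The other 3 were weak for their list. They lay at chr2:147876637-147876987 (fold 3.15, -log10 q 2.79), at chr2:147961744-147962128 (fold 3.44, -log10 q 3.91) and at chr2:147971420-147971685 (fold 2.83, -log10 q 3.18). By -log10 q they ranked 45038th, 36234th and 43784th of the 54226.

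At 6 months the 73 Foxa1 regions covered 49.6 kb of the locus, against 6.04 kb for the 6 regions at 2 weeks. On the 3′ side there were 59, in the gene body 3 and on the 5′ side 11. Of the 59, 38 had their summit inside 9030622O22Rik. Foxa2 at 6 months had 62 regions covering 33.5 kb, with 51 on the 3′ side, 2 in the gene body and 9 on the 5′ side, and 31 had their summit inside 9030622O22Rik. All 3 lists thus had most of their regions on the 3′ side. Between 50 and 100 kb on the 5′ side none of them had a region. These distances and strengths are drawn in the map of the regions.

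**Figure D1:**
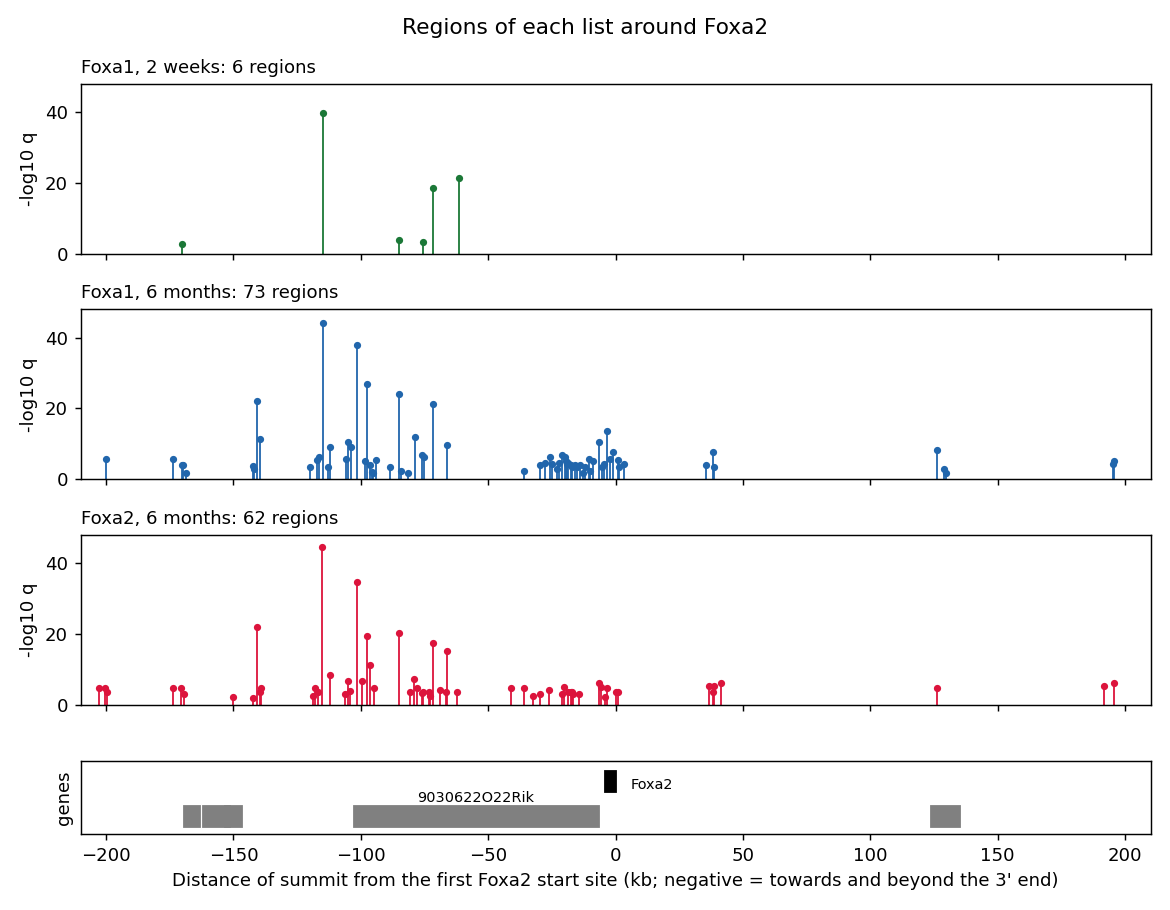
Summits of the 6 Foxa1 regions at 2 weeks, 73 Foxa1 regions at 6 months and 62 Foxa2 regions at 6 months by distance from the first Foxa2 start (kb) on the horizontal axis and the authors' -log10 q on the vertical axis, with Foxa2 in black and noncoding genes in grey below. Strong 6-month regions stand more than 60 kb out on the 3′ side, and a dense row of weaker ones lies at and beside the gene, where the 2-week list has none.

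The gain of Foxa1 regions was set against a window drawn by the same rule around each of 21887 protein-coding genes. A difference of at least 10 more Foxa1 regions at 6 months than at 2 weeks was found in 1.95% of the windows. The Foxa2 window had 67 more, and no window had a larger difference. The window of Chd7, a chromatin remodeller gene, had the same difference, from 28 regions at 2 weeks to 95 at 6 months. The median window had 4 fewer regions at 6 months (11 regions at 2 weeks and 5 at 6 months); the 6-month list was the shorter. At 2 weeks 68.4% of the windows had more than its 6 Foxa1 regions. At 6 months 3 of the windows had more than its 73 Foxa1 regions, and 5 had more than its 62 Foxa2 regions. When -log10 q had to reach 5, the Foxa2 window had 3 Foxa1 regions at 2 weeks and 35 at 6 months, and this difference of 32 was above that of every other window. A difference of at least 10 was found in 0.169% of windows under that limit. Windows of neighbouring genes overlap and are not independent of each other. They are longer for longer genes, and counts were not divided by length.

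**Figure D2:**
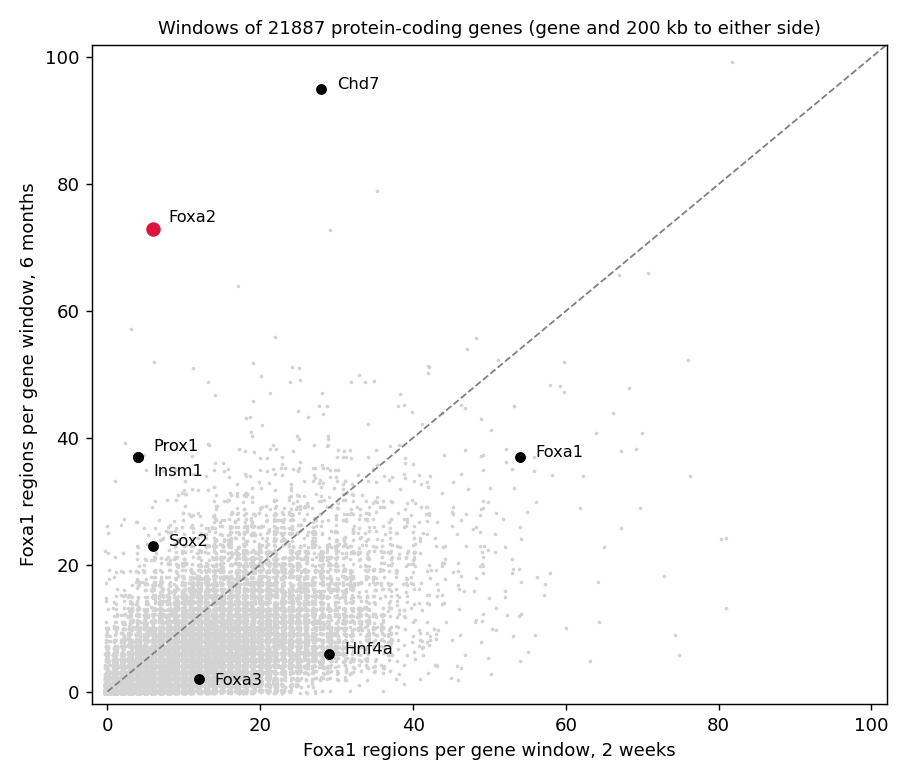
Foxa1 regions in the window of each of 21887 protein-coding genes (gene and 200 kb to either side) at 2 weeks, horizontal, and at 6 months, vertical; points are spread by up to 0.3 for display, named genes are drawn without this spread, and the dashed line marks equal numbers. Foxa2 (6 and 73) lies high above the line, and Foxa1 (54 and 37) lies below it.

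Regions at 6 months were dense from about the gene outwards on the 3′ side, in clusters with gaps, and passed the limit of the window there. No region of any list lay between chr2:147985844 and chr2:148005940. In 50 kb bins over 1 Mb to either side of the first start, the 8 bins inside 200 kb held 9.0 Foxa1 regions per bin at 6 months and the 32 bins outside held 0.688. At 2 weeks the values were 0.75 and 0.688, so the locus did not stand out from its surroundings then. For Foxa2 at 6 months they were 7.5 and 0.594. The fullest bin of Foxa1 was the one that ends at the first start on the 3′ side, with 28 regions, and for Foxa2 it was the bin from 50 to 100 kb on the 3′ side, with 17. At 6 months the bin from 150 to 200 kb on the 3′ side held 4 Foxa1 and 5 Foxa2 regions. The bin from 200 to 250 kb on the 3′ side of the first start, which takes in the outer end of the window, held 9 Foxa1 and 8 Foxa2 regions.

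**Figure D3:**
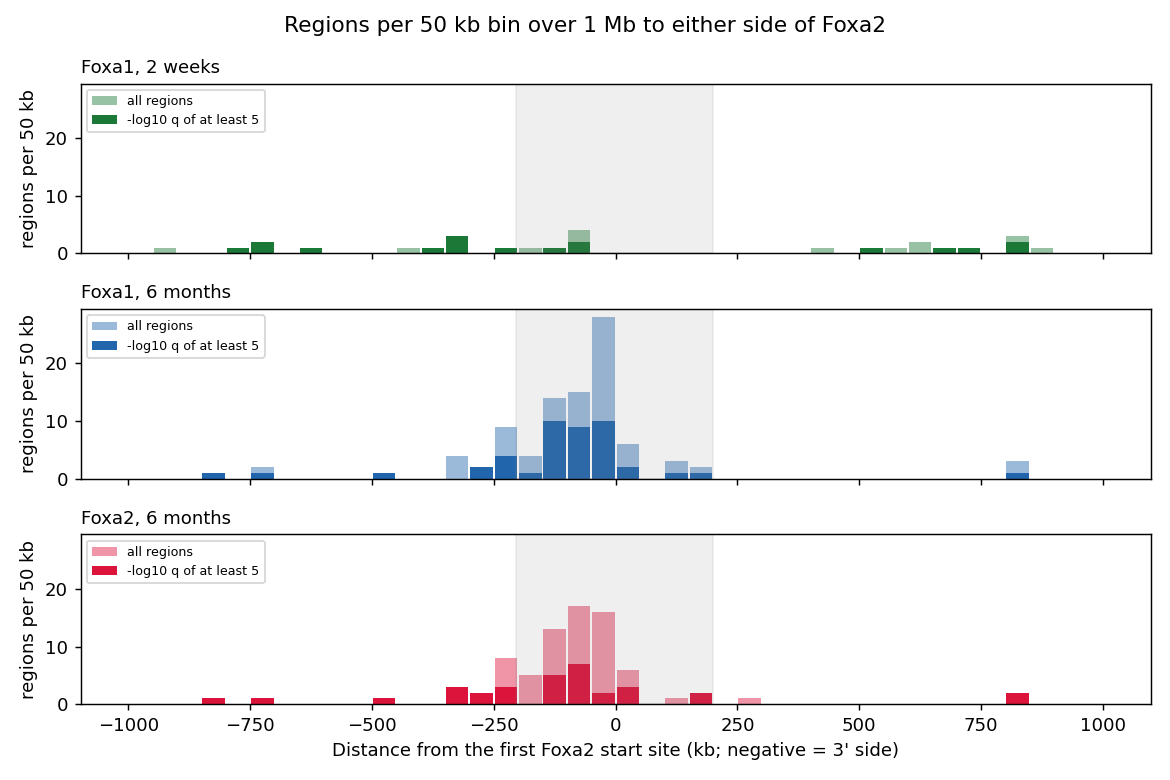
Regions per 50 kb bin over 1 Mb to either side of the first Foxa2 start, for Foxa1 at 2 weeks, Foxa1 at 6 months and Foxa2 at 6 months; pale bars count all regions, dark bars those with a -log10 q of at least 5, and grey shading marks the window. The 6-month bins rise to 28 (Foxa1) and 17 (Foxa2) inside the window, whereas no 2-week bin inside it exceeds 4.

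The 5 strongest regions of Foxa1 and of Foxa2 at 6 months lay at the same 5 sites, all between 80 and 137 kb from the 3′ end, with summits of the 2 factors 13 to 71 bp apart. The first, at the site that was also the strongest at 2 weeks, was chr2:147930981-147933190 for Foxa1 (fold 11.1, -log10 q 44.2, top 1.02% of the list) and chr2:147930898-147932770 for Foxa2 (fold 11.8, -log10 q 44.5, top 0.512%). The second lay 97.28 kb from the gene inside 9030622O22Rik, at chr2:147944041-147948139 for Foxa1 (4099 bp wide, fold 10.1, -log10 q 38.0) and chr2:147944301-147946666 for Foxa2 (fold 10.8, -log10 q 34.7), and had no 2-week counterpart. A further pair of sites was also without one: chr2:147948925-147950366 for Foxa1 (fold 8.33, -log10 q 26.9) with chr2:147948976-147949653 for Foxa2 (fold 7.72, -log10 q 19.4), and chr2:147905295-147906723 for Foxa1 (fold 7.44, -log10 q 22.2) with chr2:147904950-147906818 for Foxa2 (fold 7.73, -log10 q 21.9). The remaining site, chr2:147960297-147962432 for Foxa1 (fold 7.73, -log10 q 24.1) and chr2:147960623-147962481 for Foxa2 (fold 7.92, -log10 q 20.4), is the one whose start sequence is printed above with 2 motif matches. At 2 weeks it had been listed for Foxa1 as well. Its summit at 2 weeks was 15 bp from the 6-month Foxa1 summit and 1 bp from the Foxa2 summit. Of these 5 sites, 2 had been listed for Foxa1 at 2 weeks.

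Foxa2 regions overlapped most of the early Foxa1 regions by at least 1 bp. Of the 6 Foxa1 regions of 2 weeks, 5 overlapped a 6-month Foxa1 region by at least 1 bp (83.3%, interval 35.9 to 99.6%), where 21.8% of the whole 2-week list did, and 5 overlapped a 6-month Foxa2 region, where 21.7% of the whole list did. In 4 of them the overlap was with both. For Foxa2, the summit of the strongest overlapping region lay 1, 42, 83, 350 or 804 bp from the 2-week summit. The exception for Foxa1 was the region with its summit at a 9030622O22Rik start (57.36 kb), which was the second strongest at 2 weeks. Its nearest 6-month Foxa1 summit was 4561 bp away, and it overlapped a weak Foxa2 region (chr2:147984667-147985152, fold 3.55, -log10 q 3.58) whose summit was 804 bp from its own. The exception for Foxa2 was the outermost and weakest region, whose nearest Foxa2 summit was 326 bp away in a region that did not overlap it. Since 6 regions are few, the interval for these shares is wide. The locus was also denser in 6-month Foxa1 regions, with a median of 1230 bp between summits against 8960 bp in the whole list. An overlap of 1 bp is therefore likelier in the locus than elsewhere. The shares were not adjusted for this density.

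Seen from 6 months, most sites of the locus had no early Foxa1 region. Of the 73 Foxa1 regions 7 overlapped a 2-week region (9.59%, interval 3.94 to 18.8%), against 35.1% of the whole list. Of the 62 Foxa2 regions 6 did (9.68%, interval 3.63 to 19.9%), against 36.8% of the whole list. Both whole-list shares lie above the intervals of the locus. The locus had 6 early regions for 73 and 62 late ones, whereas in the whole genome the early list was the longest. Low shares therefore follow largely from these counts and are not a result apart from them. With the 6-month regions, but not the 2-week regions, limited to a -log10 q of at least 5, the shares in the locus were 17.1% (6.56 to 33.6%) and 15.8% (3.38 to 39.6%), and in the whole lists 46.5% and 47.6%. With the limit on both lists the share for Foxa2 in the locus was 10.5%, from 19 regions. With a reciprocal overlap of 50%, 1 of the 62 Foxa2 regions (1.61%) had a 2-week Foxa1 counterpart. With regions of all lists merged where they overlapped, the locus held 79 sites. Of these, 5 were listed for Foxa1 at both times and for Foxa2, 1 for Foxa1 at 2 weeks and Foxa2, 32 for both factors at 6 months alone, 29 for Foxa1 at 6 months alone and 12 for Foxa2 at 6 months alone. The site at chr2:147876409-147876987 is among the 5 through merging alone. Its 2-week Foxa1 region and its Foxa2 region each overlapped the 6-month Foxa1 region but not each other.

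Between the factors at 6 months, 43 of 73 Foxa1 regions overlapped a Foxa2 region (58.9%, interval 46.8 to 70.3%; 63.4% in the whole list) and 49 of 62 Foxa2 regions overlapped a Foxa1 region (79.0%, interval 66.8 to 88.3%; 69.7% in the whole list). Both intervals hold the whole-list share. With each list split at a -log10 q of 5, the interval missed the whole-list share only for Foxa2 regions below 5. Of these, 33 of 43 in the locus overlapped a Foxa1 region (76.7%, interval 61.4 to 88.2%), against 53.8% in the whole list. For Foxa2 regions of at least 5, and for Foxa1 regions on either side of 5, the interval held the whole-list share. In these groups the locus had the lower share, such as 84.2% against 90.7% for Foxa2 regions of at least 5. Neighbouring regions are not independent, which the intervals do not allow for. Foxa1 regions were denser in the locus, which makes overlap likelier, and the shares were not adjusted for this. With a reciprocal overlap of 50% the shares of all regions in the locus were 30.1% and 35.5%. Each region was then paired with its strongest partner where the choice was mutual, which gave 38 pairs with a median of 88.5 bp between summits and 27 pairs with summits within 200 bp. Across these 38 pairs, which are not independent and come from 1 library of each factor at unknown depth, the Spearman correlation of -log10 q was 0.68.

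**Figure D4:**
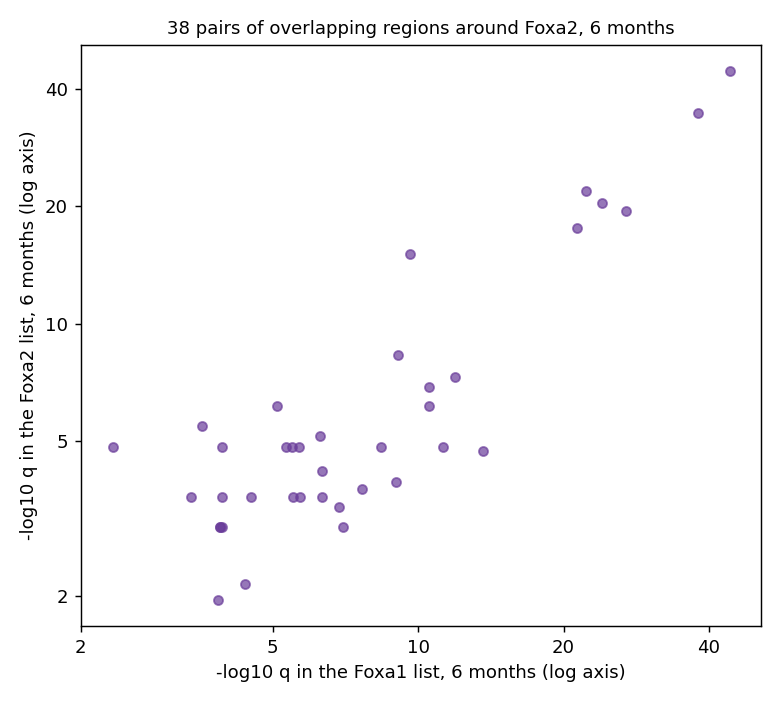
The authors' -log10 q in the Foxa1 list (horizontal, log axis) and in the Foxa2 list (vertical, log axis) for the 38 pairs of overlapping 6-month regions around Foxa2, 1 point a pair. The strongest sites, up to 44.2 and 44.5, lead both lists, and the points below 10 scatter.

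Around the gene itself the picture differed from that of the strong outer sites: regions were many, close together and weaker than those sites. Within 50 kb of Foxa2, the gene included, there were 34 Foxa1 and 22 Foxa2 regions at 6 months, none of them in the strongest 10% of its list. Their order turned when regions less than 1 kb apart were joined, which left 10 Foxa1 and 13 Foxa2 regions. The 39 Foxa1 and 40 Foxa2 regions farther out held 6 and 7 regions in the strongest 10%. Within 50 kb the median -log10 q was 4.37 for Foxa1, as in its whole list, and 3.67 for Foxa2, against 4.51 in its list. Farther out the medians were 5.47 and 4.82. Of the 34 near Foxa1 regions 16 overlapped a Foxa2 region (47.1%, interval 29.8 to 64.9%), and of the 39 farther ones 27 did (69.2%, 52.4 to 83.0%); these intervals overlap. The 18 near Foxa1 regions with no counterpart in any list included 4 with a -log10 q of at least 5. Weak regions can be absent from the other list as a matter of its threshold.

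In the gene body Foxa1 had 3 regions at 6 months. The strongest, chr2:148043177-148043896 (fold 5.81, -log10 q 13.6, top 10.8% of the list), overlapped a Foxa2 region at chr2:148043370-148043729 (fold 3.56, -log10 q 4.71), with summits 111 bp apart. The other pair had no Foxa2 counterpart: chr2:148044068-148045398 (fold 3.84, -log10 q 5.66) and chr2:148045559-148045857 (fold 4.47, -log10 q 7.67), the latter being the strongest Foxa1 region of the locus that was in no other list. A second Foxa2 region in the gene body, chr2:148042823-148042980 (fold 2.94, -log10 q 2.15), was at its 3′ end and overlapped the Foxa1 region chr2:148042410-148043017 (fold 3.30, -log10 q 4.37).

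RefSeq lists 3 starts for Foxa2, and at 2 weeks none of their windows was under a Foxa1 region, where 3.96% of all 32817 start windows were. At 6 months 2 of the 3 windows were under a Foxa1 region and 1 under a Foxa2 region, where 2.53% and 2.35% of all start windows were. The first start, whose sequence is shown above, lay in a Foxa1 region of 1208 bp (chr2:148046754-148047961, fold 3.67, -log10 q 5.49) and in a Foxa2 region (chr2:148046789-148047367, fold 3.55, -log10 q 3.58) with its summit 0.04 kb before the start. A second Foxa2 region with equal values followed at chr2:148047701-148047913, within the same Foxa1 region. The start farthest 3′ was itself under no region; its window overlapped the Foxa1 region at chr2:148045559-148045857 and held 1 motif match, TATTGAC. Neither the start between them nor its window was under a region. Farther 5′ Foxa1 had 2 more regions within 10 kb, chr2:148048242-148048432 (fold 3.28, -log10 q 3.38) and chr2:148049870-148050186 (fold 3.30, -log10 q 4.37).

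Between the 3′ end of Foxa2 and the start of 9030622O22Rik the regions ran on without a wide gap. The broadest, a Foxa1 region of 2905 bp at chr2:148038405-148041309 (fold 5.06, -log10 q 10.5), spans the cluster of 9030622O22Rik starts next to Foxa2 and overlapped 2 Foxa2 regions, chr2:148040269-148040537 (fold 4.37, -log10 q 6.15) and chr2:148041010-148041313 (fold 3.91, -log10 q 4.98). Besides this region and the region at the 3′ end, Foxa1 had 7 regions within 10 kb of the 3′ end: at 1.14 kb (fold 3.04, -log10 q 3.34), 4.82 kb (3.73 and 5.10), 5.76 kb (2.96 and 2.33), 6.29 kb (3.99 and 5.66), 7.79 kb (3.28 and 3.38), 8.54 kb (2.84 and 1.88) and 9.88 kb (3.40 and 3.89). Of these 7 the region at 9.88 kb alone overlapped a Foxa2 region. With regions less than 1 kb apart joined, 13 Foxa1 regions from chr2:148034289 to 148048432 became a single block of 14.1 kb that takes in all of Foxa2. Another block of 11 regions and 7.92 kb lay just beyond it (chr2:148023847-148031764).

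The 5′ side was sparse. Beyond 10 kb, Foxa1 and Foxa2 shared sites at 38.16, 38.54 and 125.99 kb, and near the limit of the window at 195.58 kb. The site at 38.16 kb was chr2:148084972-148085260 for Foxa1 (fold 4.32, -log10 q 7.66) and chr2:148085049-148085221 for Foxa2 (fold 3.52, -log10 q 3.76). That at 38.54 kb was chr2:148085408-148085787 for Foxa1 (fold 2.66, -log10 q 3.57) and chr2:148085446-148085862 for Foxa2 (fold 3.62, -log10 q 5.47). The site at 125.99 kb lay inside the noncoding gene Gm36597 (Foxa1 chr2:148172648-148173441, fold 4.62, -log10 q 8.36). The strongest Foxa2 regions of the locus with no counterpart in another list were on this side: chr2:148088221-148088638 (fold 4.37, -log10 q 6.15), chr2:148083441-148083619 (fold 4.17, -log10 q 5.47) and chr2:148238685-148239061 (fold 3.72, -log10 q 5.29). For Foxa1 the strongest of this kind were the pair in the gene body and the region at 6.29 kb on the 3′ side.

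At 6 months regions lay closer together in the locus than in the lists as a whole. The median distance between neighbouring Foxa1 summits at 6 months was 1230 bp in the window and 8960 bp in the whole list, and 84.7% of the distances in the window were below 5 kb, against 45.8%. For Foxa2 the medians were 1900 and 13800 bp. At 2 weeks the median was 10300 bp in the window and 11500 bp in the list. The median -log10 q was 4.50 in the window and 4.37 in the list for Foxa1 at 6 months, and 4.76 and 4.51 for Foxa2. A -log10 q of 5 was reached by 47.9% of Foxa1 regions in the window and 42.8% in the list, but by 30.6% of Foxa2 regions in the window and 43.2% in the list.

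Because regions were close, their number depended on how finely the caller split them. There were 11 more Foxa1 than Foxa2 regions at 6 months, and 0.384% of gene windows had at least 10 fewer Foxa2 than Foxa1 regions. With regions less than 1 kb apart joined, the order turned, with 26 Foxa1 and 36 Foxa2 regions. The gain of Foxa1 over time kept its direction, with 6 joined regions at 2 weeks and 26 at 6 months.

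The windows of 19 other genes, chosen as the Foxa family, regulators of neuroendocrine and endodermal cells, and neighbours, were counted in the same way, with the first value for Foxa1 at 2 weeks and the second for Foxa1 at 6 months. Of these, 7 had more Foxa1 regions at 6 months, 9 fewer and 3 equal numbers, with a median difference of 0, where over all windows 15.9% had more, 71.7% fewer and the median was -4. A difference of at least 10 more was reached by 6 of the 19, where 1.95% of all windows reached it. These included Chd7, Prox1, a homeobox gene (4 and 37), Insm1, a zinc-finger gene of neuroendocrine cells on the same chromosome (4 and 37), Sox2, a stem cell factor gene (6 and 23), and Nkx2-1, a homeobox gene of lung and thyroid (9 and 24). At least 10 fewer were found in another 6 of the 19, and in 25.3% of all windows. The 19 genes were listed with earlier results of these data known. Their shares therefore describe the list and are no evidence of enrichment. The other genes of the family had fewer at 6 months: the window of Foxa1 had 54 and 37, and that of Foxa3 had 12 and 2. Hnf4a, a hepatic and gut factor gene, had 29 and 6. On the same chromosome, the numbers were 4 and 4 at Pax1 and 2 and 2 at Thbd, which lies beyond Sstr4. Foxa2 regions at 6 months followed the Foxa1 regions of that time, with 86 at Chd7, 31 at Prox1, 39 at Insm1, 30 at Foxa1 and 4 at Foxa3.

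By likeness of the counts in the 3 lists (Euclidean distance on log2 of the count plus 1, over 1 library each, leaving out overlapping windows), the 5 windows nearest to that of Foxa2 were those of 1700113H08Rik (3, 57 and 51 regions for Foxa1 at 2 weeks, Foxa1 at 6 months and Foxa2 at 6 months; distance 0.92), Sdk1, a cell adhesion gene (13, 49 and 55; 1.16), Pax9, a paired-box gene (11, 51 and 37; 1.18), Tcerg1l (5, 37 and 38; 1.21) and Insm1 (4, 37 and 39; 1.26). Each differs from Foxa2 in having fewer regions of both factors at 6 months. Sdk1 is a long gene (chr5:141241497-142215586), so its regions are spread over a wider window.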

How the data were processed

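The authors deposited 1 peak list per immunoprecipitated library, in the layout of MACS2; no input library was analysed here. The submitters' processing notes name build mm10, MACS2 2.1.1, Bowtie2, Trim Galore 0.5.0, HOMER, bedtools 2.25.0, deepTools 3.2.1 and DiffBind 2.12.0, without saying what each did or with which settings. The deposited values of each peak are a fold enrichment (a ratio), a -log10 p-value, a -log10 q-value, a score (10 times the -log10 q without its decimals) and the summit. The weakest listed peaks correspond to a q-value of 0.05. A deeper or cleaner library gives more peaks, so absence from a list is not absence of binding.

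Regions on chromosomes 1 to 19, X and Y were kept, and 17 on unplaced contigs left out. A region belonged to a window when its summit lay in the gene or within 200 kb of its ends. An overlap of 1 bp or more made regions shared. Gene positions and start sequences came from RefSeq tables of GRCm38.p6, without exons, so exons and untranslated regions were not distinguished. Computation used Python 3.11.15, numpy 2.4.6, pandas 2.3.3 and scipy 1.17.1, with figures by matplotlib 3.10.9. Overlap counts of whole lists equalled those of bedtools 2.31.1, and overlap, window counting and joining were tested on simulated data.

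The locus, the gene list and the named regions were chosen with earlier results of these data known. Named regions were those in the gene or within 10 kb, all 2-week regions, the 5 strongest of each 6-month list and the 3 strongest in no other list. Named genes were the list of 19 genes, the neighbours, and the 5 windows most like that of Foxa2; some items this selects are not reported here. The motif spellings were chosen after the data were seen.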

Additional observations from a re-analysis of the deposited data

How the results depend on the processing

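The 2-week Foxa1, 6-month Foxa1 and 6-month Foxa2 counts of the locus (6, 73 and 62) were 3, 35 and 19 with a -log10 q of at least 5, and 3, 11 and 8 with a fold enrichment of at least 5. With lists of equal length (34942 regions) the 2-week count was 3. Joining regions less than 1 kb apart gave 6-month counts of 26 and 36, and with 100 kb to either side the Foxa2 count was 41. More Foxa1 regions at 6 months than at 2 weeks were found under each of these settings, whereas the order of Foxa1 and Foxa2 at 6 months turned with joining; joining itself merges more Foxa1 than Foxa2 regions. The share of 6-month Foxa1 regions with a Foxa2 region (58.9%) was 42.9% with a -log10 q of at least 5 asked of both lists (82.9% when asked of the Foxa1 regions alone), 76.9% with joining, 30.1% with a reciprocal overlap of 50% and 42.5% with summits within 200 bp. The reverse share (79.0%) was 35.5% with the reciprocal overlap and 50.0% with the summit rule. The share of Foxa2 regions with a 2-week Foxa1 region (9.68%) was 25.0% with a fold enrichment of at least 5, from 8 regions, and 1.61% with the reciprocal overlap. The Foxa2 window had a larger Foxa1 difference than 99.99% of gene windows, with 99.98 to 100% under the other settings, and than 100% of 6525 tiles of equal width, an alternative chosen after seeing the data. In all, 23 of 42 alternative values stayed within 1.5 times the count or within the interval. Weak regions limit the counts: 11 of the 62 Foxa2 regions had the identical fold enrichment of 3.55 and -log10 q of 3.58, and 38 of the 73 Foxa1 regions shared both values with another region of the locus. No paired analysis was possible because each group has 1 library.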
